A study of Mus musculus with 12 samples.

Results

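Gene expression was studied in 3T3-L1 pre-adipocytes grown alone and given cortisol plus serotonin, against untreated pre-adipocytes grown alone. 3T3-L1 is a mouse fibroblast line that can be differentiated into adipocytes. The groups were cultures given 100 µM cortisol and 100 µM serotonin together (CS), cultures given 100 µM cortisol (C) and cultures without hormone (NT), each harvested after 6 h, 24 h and 48 h. Cultures with 100 µM serotonin (S) were also made, and the medium with its hormones was renewed after 24 h. The hormone stocks were dissolved in DMSO, and no vehicle is named for NT in the labels. Each of the 12 dual-colour arrays carried the cells grown alone in its green (Cy3) channel. Its red (Cy5) channel carried time-matched cells given the same treatment that had shared medium with RAW264.7 macrophages. The cells described here are those in the green channels of the 3 CS arrays, chosen by the treatment label, with the green channels of the 3 NT arrays as the reference and those of the 3 C arrays beside them; the 12 arrays hold 24 channels in all.

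There was 1 array per treatment and time, so the 3 times stood in for replicates, and the p-values reflect nothing but the scatter among these arrays, which may be technical. The arrays of a time shared a slide, on which NT lay in position 1, S in position 2, C in position 3 and CS in position 4, so treatment and position on the slide cannot be told apart. The green channels had 18395 (CS at 24 h) to 21335 probes well above background. A level below is the log2 of the green signal after quantile normalization, a difference is CS minus NT on that scale, and calls needed a change of at least 1.5-fold and an adjusted p under 0.05 (limma, two-sided, Benjamini-Hochberg). The fibroblast markers Pdgfra and Col1a1 lay well above background on 12 of 12 arrays. Pparg and Fabp4, the latter from the list of mature adipocyte markers, did so too. Adipoq and Lep, which mark mature adipocytes, lay well above background on 0 of 12 arrays. Of the other listed adipocyte genes, Lpl, Cidea, Dgat2, Pnpla2 and Plin4 did so on 12 of 12. Aqp7, Slc2a4, Ucp1 and Acvr1c did so on 0 of 12, and Plin1, Cidec, Cfd, Retn and Lipe on 1 to 4 of 12. The leukocyte genes Ptprc and Adgre1 lay well above background on 1 of 12. Of the other macrophage genes, Lyz2 lay well above background on 7 of 12 arrays and Csf1r on 12 of 12.

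Cortisol enters cells and binds the glucocorticoid receptor, which moves to the nucleus, where it binds DNA elements beside genes such as Fkbp5 and Tsc22d3 and raises their transcription, and where it also restrains inflammatory genes driven by NF-kB and AP-1. Glucocorticoids are part of the mixture used to turn 3T3-L1 cells into adipocytes. Serotonin acts on membrane receptors of the Htr family and is broken down by monoamine oxidases.

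The green channel labelled CS at 24 h went against its label on glucocorticoid-induced genes. Zbtb16, a transcription factor gene that responds strongly to glucocorticoids, had levels of 10.85, 8.32 and 10.77 in CS at 6, 24 and 48 h, against 10.71, 10.81 and 10.73 in C and 7.74, 7.95 and 7.36 in NT. Tsc22d3, which encodes the glucocorticoid-induced leucine zipper, had 14.94, 13.13 and 14.99 in CS and 13.46, 13.99 and 13.29 in NT. The CS channel at 24 h thus lay close to NT for Zbtb16 and below it for Tsc22d3, while both other CS channels lay above every NT channel. In the red channel of the same array these genes were higher than in the red NT channel, by 2.59 for Zbtb16 and 0.86 for Tsc22d3. Whether that culture received cortisol was not tested, and the comparison of CS with NT is therefore given both without this channel (6 h and 48 h) and with it (3 times). The NT channel at 6 h also stood apart from the others, its highest correlation with another green channel across genes being 0.978 against at least 0.985 for the other 11.

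**Figure D1:**
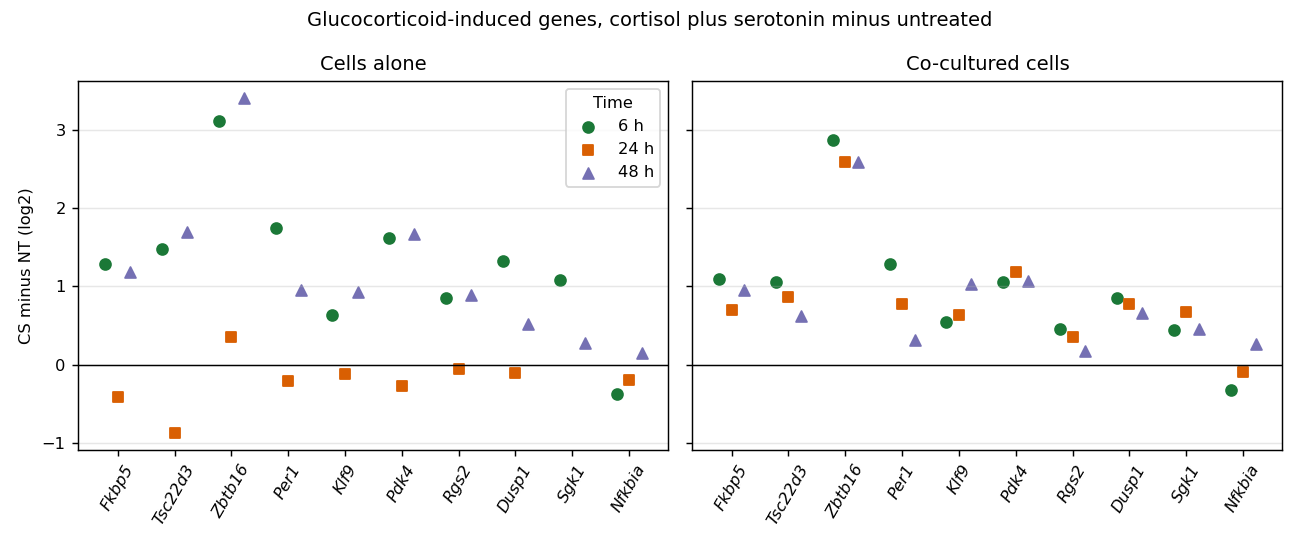
CS minus NT (log2) of 10 glucocorticoid-induced genes at 6, 24 and 48 h, in cells alone (left) and in co-cultured cells (right); each point is the difference between 1 CS and 1 NT channel. In cells alone the 24 h points lie near or below 0 for genes that are raised at 6 h and 48 h, whereas Zbtb16 is raised by 2.59 to 2.87 at all 3 times in co-cultured cells.

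Without the CS channel at 24 h, 78 of 12915 genes (0.604%) differed between CS and NT. Of these, 52 were higher (0.403% of the genes tested) and 26 were lower (0.201%), and 2213 genes had an unadjusted p under 0.05. The genes raised most were ribonucleases of the Ear family, Zbtb16 and a mixed group with Syn2, Col11a1 and Aldh1a1, and those lowered most were the potassium channel gene Kcnk10 and the cytokine gene Il11. The count rested on the whole set of arrays. It was 14, 9 and 12 without the C channel at 6 h, 24 h or 48 h, 154, 9 and 43 without the NT channel at those times, and 27 or 108 without the CS channel at 6 h or 48 h, and with the NT and CS arrays alone it was 10.

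At single times the differences between 1 CS and 1 NT channel have no replicate check. At least 1.5-fold higher in CS were 2312 genes at 6 h (18% of those measured), 903 at 24 h (7.11%) and 1068 at 48 h (8.34%), and 1287 (10%), 1140 (8.97%) and 1031 (8.05%) were as far below. Of the 52 genes called higher, 18 of the 50 measured in the channel labelled CS at 24 h were at least 1.5-fold above NT there, with a median difference of 0.26, against 40 of 49 with a median of 1.19 in the co-cultured cells of that array. Of the 26 called lower, 3 of 25 were at least 1.5-fold below NT in the cells alone at 24 h, with a median of -0.24, against 12 of 26 with a median of -0.55 in the co-cultured cells. The channel labelled CS at 24 h and the co-cultured cells took no part in the choice of these genes. However, NT and C at 24 h were in the fit, and NT at 24 h is also part of the 24 h difference in cells alone. The co-cultured cells were read from the same spots and slide positions as the cells alone.

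**Figure D2:**
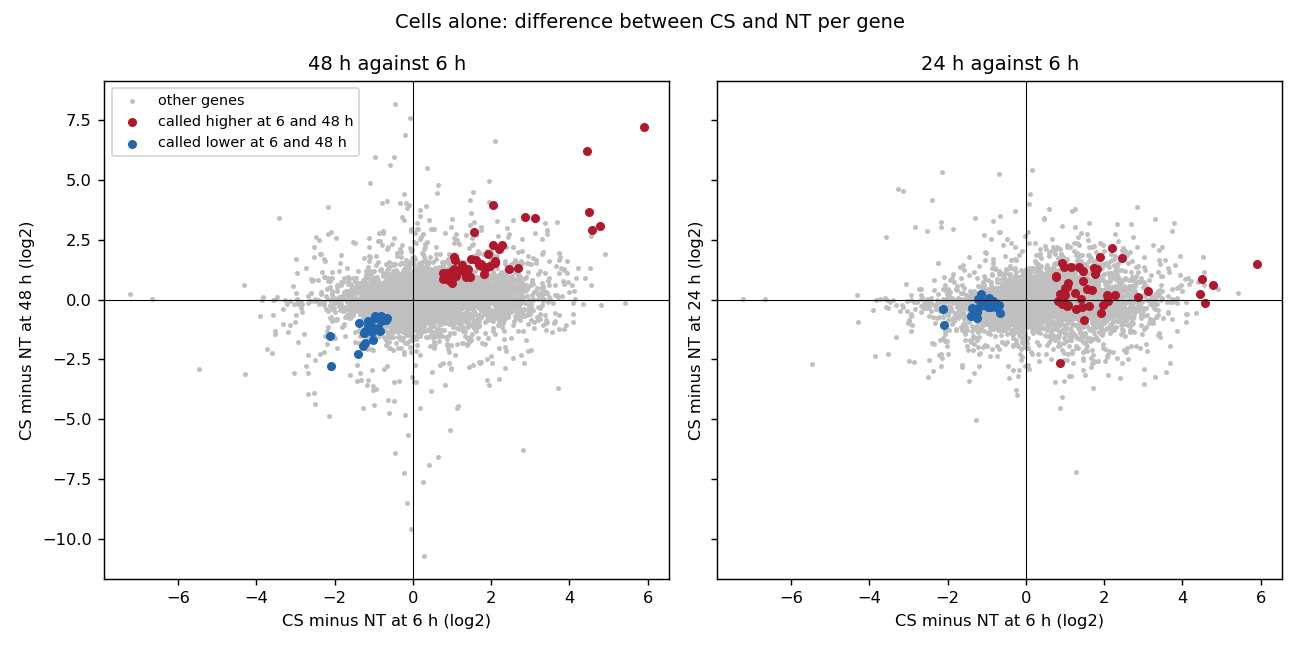
CS minus NT (log2) in cells alone at 48 h (left) and at 24 h (right) against that at 6 h; each point is a gene, with the 52 genes called higher and the 26 called lower at 6 h and 48 h coloured. The called genes lie in the upper right and lower left at 6 h and 48 h, which the choice fixes, and spread around 0 at 24 h, where 18 of 50 and 3 of 25 were at least 1.5-fold apart in the same direction.

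Glucocorticoid-induced genes lay mostly above NT in CS at 6 h and 48 h. Of the 30 measured members of this list (33 were listed), 5 rose and 0 fell, where 0.403% of all genes rose, and the median difference of the list was 0.73, against -0.01 over all genes. At least 1.5-fold higher at both 6 h and 48 h were 13 of the 30 (43.3%), against 3.91% of all genes, and 0 were as far below at both. Members that rose were Zbtb16 (3.21 ± 0.16, SE; adjusted p = 0.000825), Pdk4 (1.62 ± 0.13; adjusted p = 0.00581), Tsc22d3 (1.54 ± 0.13; adjusted p = 0.00928), Fkbp5 (1.23 ± 0.11; adjusted p = 0.0103) and Rgs2 (0.82 ± 0.12; adjusted p = 0.0441), each from limma on 8 arrays. With the CS channel at 24 h included, 0 of the 30 passed and the median was 0.52.

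Fkbp5, a chaperone partner of the glucocorticoid receptor that lowers its affinity for hormone, had levels of 13.77, 12.65 and 13.95 in CS at 6, 24 and 48 h, against 13.59, 14.13 and 13.86 in C and 12.48, 13.06 and 12.76 in NT. CS and NT did not overlap once the 24 h channel was set aside. Pdk4, a kinase that turns off pyruvate dehydrogenase and so spares glucose, had 11.65, 10.20 and 11.90 in CS, against 12.11, 12.30 and 12.11 in C and 10.03, 10.47 and 10.23 in NT. Rgs2, a brake on G protein signalling, had 14.02, 13.59 and 14.61 in CS, against 14.13, 14.39 and 14.78 in C and 13.17, 13.64 and 13.72 in NT. For both genes the CS level at 24 h lay within 0.3 of NT, while C at 24 h lay above every NT level.

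Several well-known members of the list did not pass. Per1, a clock gene with glucocorticoid response elements, had 14.37, 13.09 and 14.28 in CS and 12.63, 13.30 and 13.33 in NT, a difference of 1.28 ± 0.26 (limma adjusted p = 0.0921). Dusp1, a phosphatase that switches off MAP kinases, differed by 0.94 ± 0.19 (adjusted p = 0.0921), and Klf9, a transcription factor gene, by 0.77 ± 0.13 (adjusted p = 0.0599). Sgk1, a kinase that acts on ion channels, differed by 0.70 ± 0.18 (adjusted p = 0.141), and the CS spot at 24 h was left out as an outlier. Nfkbia, the inhibitor that holds NF-kB in the cytoplasm, differed by -0.07 ± 0.15 (adjusted p = 0.841), with levels of 13.43, 13.61 and 13.52 in CS and 13.80, 13.80 and 13.38 in NT. Cdkn1c was not well above background often enough to be tested. The receptor gene itself, Nr3c1, had 13.31, 13.42 and 13.43 in CS and 13.64, 13.98 and 13.60 in NT (-0.33 ± 0.16, limma adjusted p = 0.339). Of the 19 measured genes of steroid receptors and steroid handling, 0 passed the test, where 0.604% of all genes did.

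The stretches before the starts of these genes were searched for glucocorticoid response elements, the inverted repeats that the receptor binds as a pair. In the 250 bases before each start (RefSeq, GRCm38.p6), the strict palindrome, AGAACA and TGTTCT with any 3 bases between them, occurred in 3 of 27025 genes (0.0111%), and among the genes listed here only Sgk1 had it. It is shown because it is the strict element in a known target that did not pass here, with the match in capitals.
Sgk1, chr10:21993640-21993889 (+ strand): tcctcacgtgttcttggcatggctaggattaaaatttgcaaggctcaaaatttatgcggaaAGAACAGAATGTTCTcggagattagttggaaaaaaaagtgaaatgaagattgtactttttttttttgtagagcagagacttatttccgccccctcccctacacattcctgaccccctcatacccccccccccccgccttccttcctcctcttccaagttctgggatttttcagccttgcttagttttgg
A looser form, GNACA and TGTNC with any 3 bases between them, read on both strands and found in 0.358% of the 10336 tested genes with a sequence, occurred in 3 of the 41 genes called higher that had one (7.32%) and in 0 of the 16 called lower. These 3 are shown with the match in capitals, since they are the called genes that hold such letters near their start.
Map3k6, chr4:133240568-133240817 (+ strand): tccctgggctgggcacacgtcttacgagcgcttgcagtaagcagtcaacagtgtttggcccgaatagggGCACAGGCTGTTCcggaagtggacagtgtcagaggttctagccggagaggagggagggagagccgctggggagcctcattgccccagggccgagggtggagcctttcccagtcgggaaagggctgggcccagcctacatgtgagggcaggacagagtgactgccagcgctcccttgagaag
Slc10a6, chr5:103629404-103629653 (- strand): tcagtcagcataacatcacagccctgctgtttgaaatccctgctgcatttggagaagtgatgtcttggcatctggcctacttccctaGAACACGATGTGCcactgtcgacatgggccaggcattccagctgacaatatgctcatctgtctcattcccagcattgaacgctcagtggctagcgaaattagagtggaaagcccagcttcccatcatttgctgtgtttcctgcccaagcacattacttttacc
Serpina3c, chr12:104153873-104154122 (- strand): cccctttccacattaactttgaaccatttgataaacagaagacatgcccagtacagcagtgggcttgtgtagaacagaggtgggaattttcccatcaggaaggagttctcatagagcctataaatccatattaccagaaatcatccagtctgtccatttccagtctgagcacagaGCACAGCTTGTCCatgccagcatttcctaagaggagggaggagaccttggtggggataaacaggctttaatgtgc
Map3k6, a kinase of the stress-activated MAP kinase cascade, rose by 1.44 ± 0.18 (limma adjusted p = 0.0366), with levels of 10.25, 8.95 and 10.49 in CS and 9.17, 8.26 and 8.82 in NT. Slc10a6, a transporter of sulfated steroids, also rose by 1.44 ± 0.18 (adjusted p = 0.0303), and Serpina3c, a serine protease inhibitor of a family whose close relatives a probe may also bind, by 2.18 ± 0.30 (adjusted p = 0.0399). A match is a description of the letters, not a measured binding site. An NF-kB form, GGGA and TTCC with any 2 bases between them, found in 1.51% of the tested genes, occurred in 1 of the 41 called higher and 0 of the 16 called lower.

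The highest rises were in genes outside that list. Ear1 and Ear2 encode eosinophil-associated ribonucleases, a mouse family on chromosome 14 whose members are so alike that a probe may bind more than 1 of them. Ear2 had levels of 11.67, 7.43 and 13.07 in CS at 6, 24 and 48 h, against 11.37, 12.22 and 13.04 in C and 7.23, 7.21 and 6.85 in NT, and rose by 5.31 ± 0.41 (limma adjusted p = 0.00581). Ear1 had 9.65, 6.04 and 10.89 in CS and 3.75, 4.54 and 3.68 in NT. Ear1 was not well above background in any NT channel, so its rise at 6 h and 48 h is given as a bound. It was at least 51.2-fold against the lowest signal well above background. The limma adjusted p of 0.00229 comes from the fit on the signals as measured and does not test this bound. Ear1 entered the test only through channels other than NT in which it was well above background. Ear10 of the same family, named after its values were seen, rose by 0.97 ± 0.14 (adjusted p = 0.0441).

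Other genes with large rises were of mixed function. Tent5b, which encodes a poly(A) polymerase, had 12.89, 9.61 and 12.25 in CS and 10.63, 9.40 and 9.96 in NT, a rise of 2.29 ± 0.11 (adjusted p = 0.000825). Aldh1a1, which makes retinoic acid from retinaldehyde, had 7.39, 7.43 and 10.36 in CS and 4.53, 7.32 and 6.92 in NT, a rise of 3.02 ± 0.27 (adjusted p = 0.0105). The CS level at 24 h lay within 0.3 of NT for both genes, and the CS levels at 6 h and 48 h were above every NT level for each.

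Syn2, a synaptic vesicle protein gene, had 7.45, 5.32 and 8.74 in CS and 2.95, 4.48 and 5.08 in NT. By this probe it was not well above background in any NT channel and so rose at least 10.9-fold. Another probe of Syn2 differed by 1.91 (log2), so the bound is that of 1 probe. Sprr2k, a cornified envelope gene that was also not well above background in any NT channel, rose at least 11.1-fold. As for Ear1, their limma adjusted p-values (0.0118 and 0.0486) come from the signals as measured and do not test these bounds. Both genes entered the test only through channels other than NT. Col11a1, a fibrillar collagen chain, rose by 3.65 ± 0.56 (adjusted p = 0.048) with levels of 7.20, 6.13 and 8.20 in CS and 2.43, 5.52 and 5.14 in NT, but its NT spot at 6 h was not well above background, so the size of this rise is uncertain. The NT channel at 6 h had the lowest value of Syn2 and of Col11a1 among the NT channels.

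Zfp948 and Prrx2, also among the 12 highest, stayed high in the channel labelled CS at 24 h. Zfp948, a zinc finger gene, had 9.02, 9.70 and 9.66 in CS and 6.81, 7.54 and 7.53 in NT, a rise of 2.08 ± 0.19 (adjusted p = 0.0105). Prrx2, a homeobox gene of mesenchymal cells, had 14.56, 13.54 and 13.68 in CS, against 12.55, 13.10 and 12.71 in C and 12.11, 11.81 and 12.39 in NT, a rise of 2.02 ± 0.31 (adjusted p = 0.048). Its probe lies in the outermost column of spots, described with the comparison of CS and C.

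**Figure D3:**
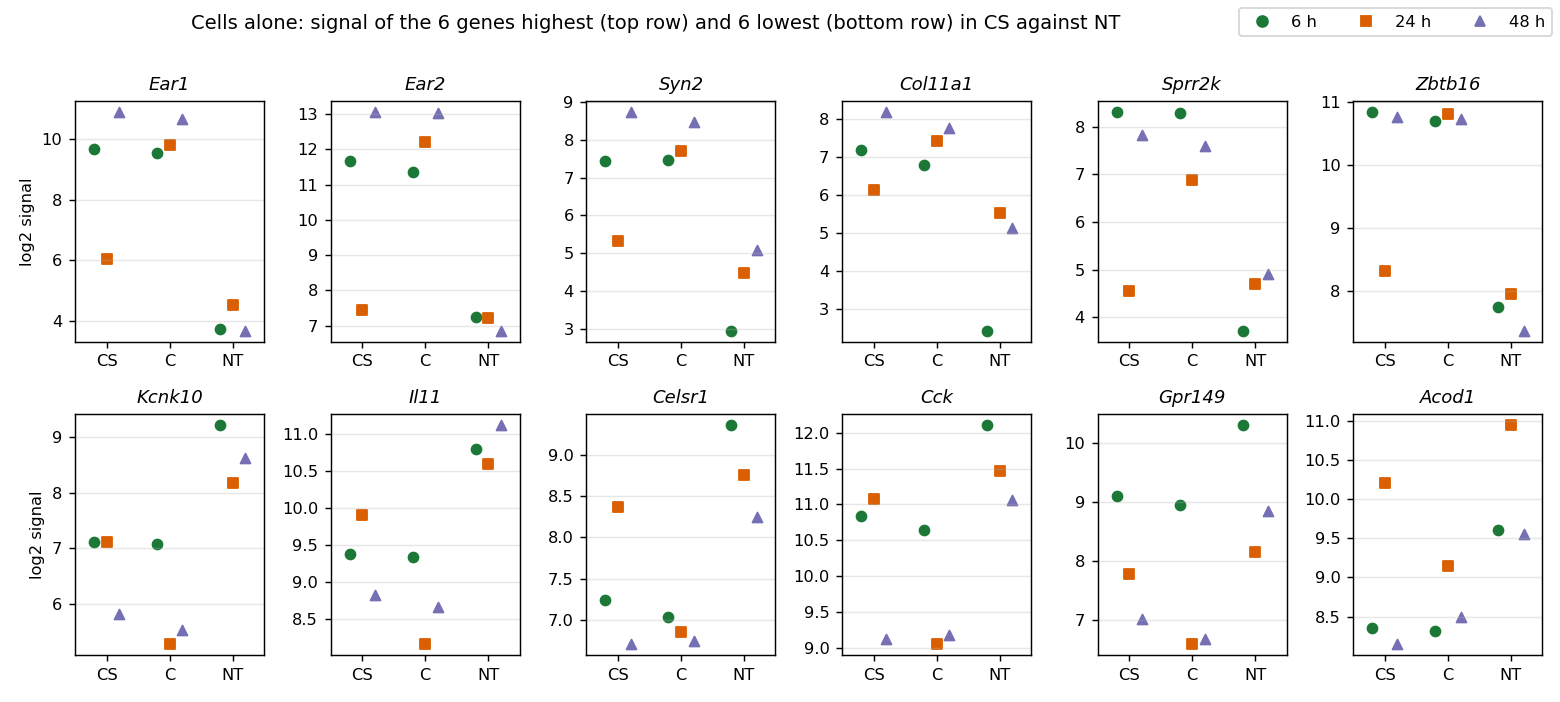
Levels in cells alone (log2 signal, own scale in each panel) of the 6 genes highest (upper row) and the 6 lowest (lower row) in CS against NT at 6 h and 48 h, in CS, C and NT; each point is 1 array, with its time given by shape and colour. In panels such as Ear2 and Zbtb16 the CS point at 24 h (7.43 and 8.32) lies near NT, whereas Il11 in CS lies between 8.83 and 9.91, below its lowest NT level of 10.59.

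Inflammatory genes that glucocorticoids are known to repress were mostly lower in CS at 6 h and 48 h. Of the 28 measured, 2 fell (Il11 and Nos2) and 0 rose, where 0.201% of all genes fell, and the list's median difference was -0.67. Both at 6 h and at 48 h, 20 of the 28 lay below NT (71.4%, against 29% of all genes) and 0 lay above it. Il11, a cytokine of the interleukin 6 family, had levels of 9.38, 9.91 and 8.83 in CS and 10.79, 10.59 and 11.12 in NT, a fall of 1.93 ± 0.25 (log2; adjusted p = 0.0396). Nos2, the inducible nitric oxide synthase, had 13.11 and 13.61 in CS at 6 h and 48 h, with the 24 h spot left out, and 14.14, 14.98 and 15.30 in NT, a difference of -1.39 ± 0.16 (adjusted p = 0.0276). Acod1, which makes itaconate and was called although it is not on that list, had 8.36, 10.21 and 8.15 in CS, against 9.61, 10.95 and 9.56 in NT (-1.44 ± 0.20, adjusted p = 0.0424).

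These 3 genes had no CS level at 6 h or 48 h as high as any NT level. Il6 did not pass (-1.18, adjusted p = 0.174). The macrophage marker list, with 0 members called where 0.604% of all genes were, also lay below NT. Its median difference was -0.43 over the 14 measured of 24 genes on the array. Its summed level (log2) was 12.78 to 13.48 in CS and 13.44 to 13.64 in NT. Of the list's genes, 13 to 15 in CS and 10 to 13 in NT lay well above background. The part of this list in the result was not tested.

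Interferon-stimulated genes, which defend against viruses, had a median difference of -0.51, and 22 of 33 lay below NT at both 6 h and 48 h (66.7%, against 29% of all genes) with 0 above at both (26.6% of all genes). The antiviral gene Oasl2 was the 1 member of 33 that fell, where 0.201% of all genes did (12.20, 13.58 and 12.10 in CS, 12.96, 13.88 and 12.94 in NT; -0.82 ± 0.11, adjusted p = 0.0399).

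Some growth factor genes fell in CS. Of 28 measured growth factors and binding proteins, 3 fell and 0 rose, where 0.201% of all genes fell, and 14 (50%) lay below NT at both times, against 29% of all genes. Hgf, the ligand of the Met receptor, differed by -1.07 ± 0.13 (adjusted p = 0.0307), and Nrg1, an ErbB receptor ligand, by -0.78 ± 0.12 (adjusted p = 0.048). Bdnf, a neurotrophin, had 12.33, 12.51 and 11.63 in CS and 13.01, 12.72 and 12.48 in NT (-0.77 ± 0.11, adjusted p = 0.0443), so that its CS and NT levels at 6 h and 48 h did not overlap. Grem1, a secreted antagonist of bone morphogenetic proteins, was the single member of the 28 measured TGF-beta, BMP and Wnt genes that fell, with 13.44, 14.07 and 13.38 in CS and 14.34, 14.39 and 14.55 in NT (-1.05 ± 0.13, adjusted p = 0.0292).

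Among 41 measured extracellular matrix genes, 3 fell and Col11a1 rose, where 0.201% of all genes fell and 0.403% rose, and the median was 0.02. Timp3, an inhibitor of metalloproteinases, had 10.93, 10.74 and 10.36 in CS and 12.04, 10.97 and 11.48 in NT (-1.14 ± 0.13, adjusted p = 0.0265). Has2, which makes hyaluronan, had 8.77, 11.01 and 9.77 in CS and 9.92, 10.78 and 10.83 in NT (-1.12 ± 0.13, adjusted p = 0.0292). Loxl2, which cross-links collagen, differed by -1.30 ± 0.20 (adjusted p = 0.0466) by its brightest probe, while its other probes differed by -0.60 and -0.56. The fibrillar collagens of fibroblasts did not move past the threshold, with Col1a1 at -0.32 (adjusted p = 0.312) and Col3a1 at 0.30 (adjusted p = 0.309).

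The remaining genes of the 12 lowest were receptors, channels and regulators. Kcnk10, a background potassium channel, had 7.12, 7.11 and 5.82 in CS, against 7.08, 5.29 and 5.54 in C and 9.21, 8.17 and 8.61 in NT (-2.49 ± 0.29, adjusted p = 0.0276). Celsr1, a cadherin of planar cell polarity, had 7.24, 8.37 and 6.71 in CS and 9.36, 8.76 and 8.25 in NT (-1.83 ± 0.24, adjusted p = 0.0399). Cck, the gene of the gut and brain peptide cholecystokinin, had 10.84, 11.07 and 9.12 in CS and 12.11, 11.46 and 11.06 in NT (-1.73 ± 0.22, adjusted p = 0.039). In each of these 3 genes both CS levels at 6 h and 48 h lay below every NT level. The orphan receptor gene Gpr149, the G protein subunit gene Gna14, the tendon transcription factor gene Scx and the protease inhibitor gene Serpinb6b fell by 1.49, 1.30, 1.22 and 1.14 (log2), with adjusted p between 0.0441 and 0.048.

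The lists of adipocyte biology held few calls, where 0.604% of all genes tested were called. Of 32 measured adipogenic regulators 0 passed, and Pparg, the master regulator of the adipocyte programme, had 11.72, 11.95 and 12.27 in CS and 11.88, 12.07 and 11.83 in NT (0.15 ± 0.16, adjusted p = 0.643). Of 40 measured genes of lipid uptake, synthesis and storage, 1 rose, and that was Pdk4. Fasn, the fatty acid synthase gene, had 9.17, 7.57 and 8.33 in CS and 9.67, 7.44 and 2.40 in NT, but NT at 48 h was not well above background, and Fasn did not pass (adjusted p = 0.428). The cholesterol synthesis list lay below NT at 6 h (median -0.53) and near it at 48 h (0.13), with 0 of 23 called. The contractile list had a median of 0.44 at 6 h and of -0.41 at 48 h, with 0 of 14 called. Of the 21 lists, 14 had 0 members called at 6 h and 48 h. With 0.604% of all genes called, a count of 0 in lists of this size says little about their genes.

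**Figure D4:**
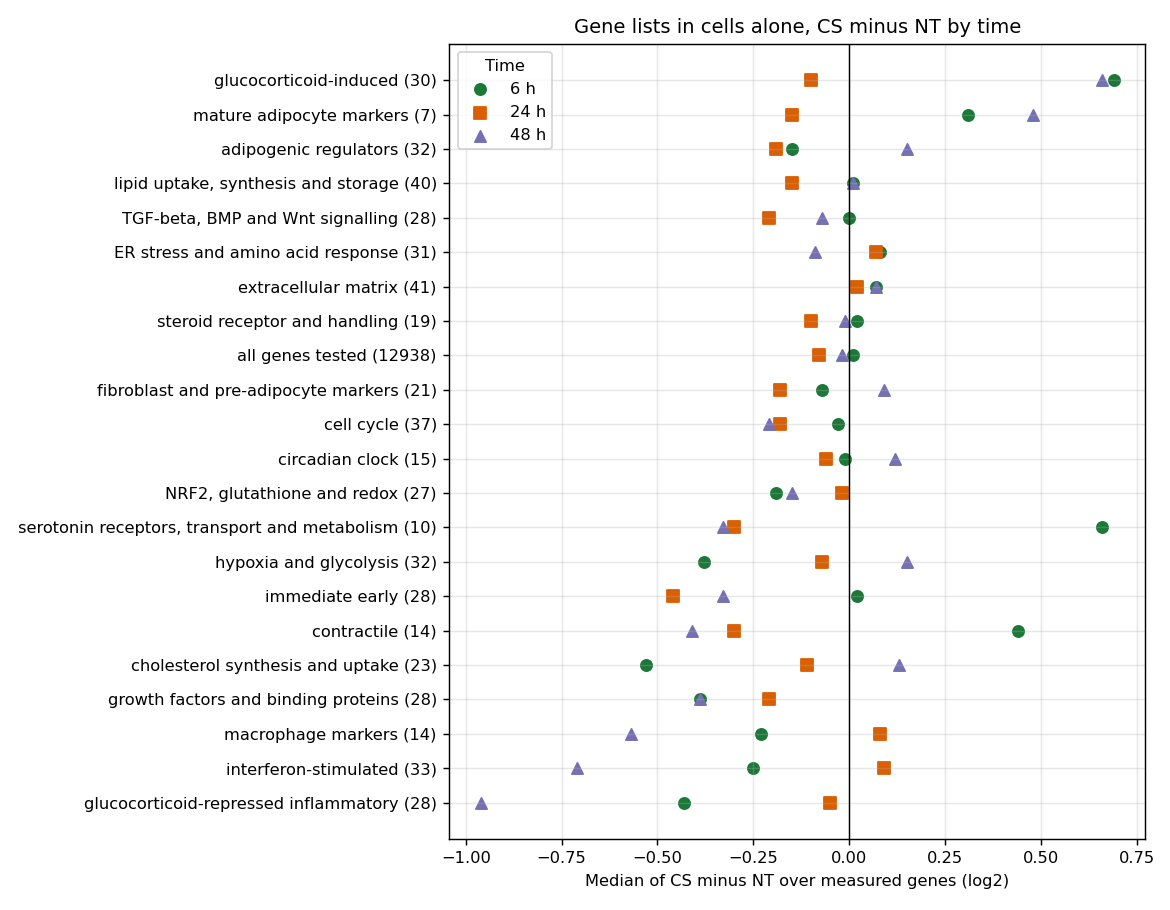
Median CS minus NT (log2) in cells alone over the measured genes of each list (number in brackets) at 6, 24 and 48 h. The glucocorticoid-induced list lies at 0.69 and 0.66 at 6 h and 48 h and at -0.10 at 24 h, and the glucocorticoid-repressed inflammatory list lies at -0.43, -0.05 and -0.96 at 6, 24 and 48 h.

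With the channel labelled CS at 24 h included, 34 of 12878 genes differed between CS and NT over 3 times, 31 of them higher (0.241%) and 3 lower (0.0233%), and 2395 had an unadjusted p under 0.05. Of these 34 genes, 16 were also called without that channel, which is 47.1% of the calls over 3 times and 20.5% of those at 6 h and 48 h. Among the 16, Denr, Xdh and Nos2 had no CS value at 24 h. Both fits used the same 8 arrays for these genes, so their overlap was fixed in advance. None of the 30 glucocorticoid-induced genes was among the 34, and the extracellular matrix list had 1 member called, Postn (0.76, limma adjusted p = 0.0455), a matricellular protein gene. Nos2 was 1 of the 3 lower. Rnf185 and Cep295, also lower, had their probes in column 1 of the spots, an outermost column. Rint1, Denr and Ostf1, among the highest rises, had theirs in column 85, the outermost on the other side. Leaving out both columns left 20 higher and 1 lower. The highest rises with a probe away from the array's edge were Zfp948 (2.16 ± 0.15, adjusted p = 0.00614) and Dkc1 (1.52, adjusted p = 0.0314), which encodes a pseudouridine synthase and was named after its values were seen.

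The genes called higher over 3 times were mostly higher in the co-cultured cells too. In the red channels, 30 of 30 were at least 1.5-fold higher in CS at 6 h, 29 of 29 at 24 h and 23 of 30 at 48 h. The red channels took no part in the choice. They were, however, read from the same spots at the same slide positions, so they are not an independent check. In many of them the levels ran in the order of position on the slide. Zfp948 had 9.02, 9.02, 8.07 and 6.81 in CS, C, S and NT at 6 h, 9.70, 9.16, 8.04 and 7.54 at 24 h, and 9.66, 9.52, 8.48 and 7.53 at 48 h. The levels were in the order NT, S, C, CS from low to high for 20 of 31 genes at 6 h, 17 of 29 at 24 h and 15 of 30 at 48 h, where 8.79%, 4.53% and 8.86% of all genes were. The genes called higher at 6 h and 48 h had this order for 27 of 52 at 6 h (51.9%), 8 of 50 at 24 h (16%) and 32 of 51 at 48 h (62.7%). The choice fixes CS above NT in both sets, other than at 24 h in the second, but not S and C between them. The shares over all genes come from genes not chosen in this way, so they are not a like baseline. C also received cortisol, and the labels of S at 6 h and 24 h were in doubt. Hormone and slide position cannot be told apart in this order, and the part of the slide position was not tested. Leaving out single channels moved the count of 34 to between 0 and 166: it was 0 without NT at 6 h, NT at 24 h or CS at 6 h, 3, 1 and 2 without C at 6 h, 24 h or 48 h, 12 without CS at 48 h and 166 without NT at 48 h.

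Whether serotonin added to cortisol changed expression was asked by setting CS against C at 6 h and 48 h. None of 12915 genes was called by limma (0%; 315 had an unadjusted p under 0.05), and the smallest adjusted p was 0.0869. The 95% interval of a difference was ± 0.4 (log2) for the median gene, before any adjustment for the number of genes. This is not a limit of detection, since differences as large as that of Ccl3 (3.27) were not called. Ccl3, a chemokine gene named after its values were seen, was measured on 7 of the 8 arrays. It had no CS value at 48 h, so its difference rests on the CS channel at 6 h. Its probe lies in column 85, the outermost column of spots described in the next paragraph. Fkbp5 differed between CS and C by 0.14 ± 0.11 (95% interval -0.12 to 0.40), Zbtb16 by 0.14 ± 0.16 (-0.24 to 0.52) and Tsc22d3 by 0.13 ± 0.13 (-0.17 to 0.43). Ear2 differed by 0.19 ± 0.41 (-0.77 to 1.15), Il11 by 0.18 ± 0.25 (-0.41 to 0.77), and Dusp1, the farthest of the named glucocorticoid genes, by 0.66 ± 0.19 (0.21 to 1.11; adjusted p = 1). Over the 52 genes called higher against NT, CS minus C had a median of 0.165 and a range of -0.33 to 2.14, and over the 26 called lower a median of -0.01 and a range of -0.40 to 0.39; the CS channels are shared with the comparison that chose them.

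Leaving out channels made calls between CS and C in 3 cases: 13 genes without CS at 6 h, 32 without CS at 48 h and 1 without NT at 48 h. The lowest p-values of this comparison gathered at the edge of the array. Of the 25 genes with the lowest p, 16 (64%) had their probe in column 85, the outermost of 85 columns of spots, which held 1.01% of the genes tested. The mean of CS minus C in that column was 0.33, 0.34 and 0.26 at 6, 24 and 48 h, against -0.20 to 0.18 over columns 1 to 84 at all 3 times. In the red channels that column stood at 0.38, 0.3 and 0.21, against -0.21 to 0.18 over columns 1 to 84. Prrx2 is among the genes of that column (CS minus C 1.34 ± 0.31), and 5 of the 78 genes called against NT at 6 h and 48 h lie there, as do 4 of the 34 over 3 times.

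**Figure D5:**
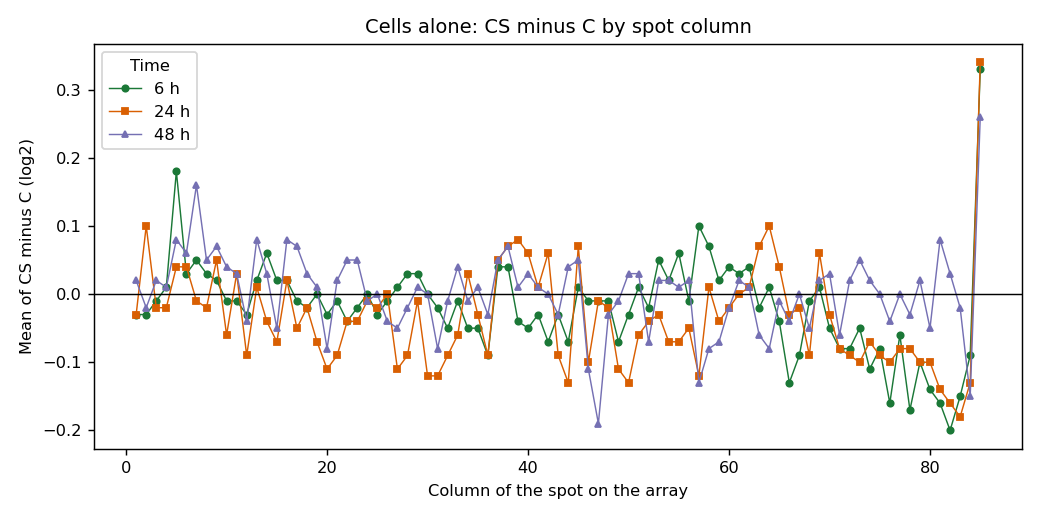
Mean of CS minus C (log2) in cells alone over the genes whose probe lies in each column of spots, at 6, 24 and 48 h. Column 85 stands at 0.33, 0.34 and 0.26, above the -0.20 to 0.18 of the other columns.

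Of 30 listed genes of serotonin receptors, transport and metabolism, 10 were measured. None of these was called in any comparison, where at most 0.604% of all genes were. Htr2a, a receptor that couples to calcium release, had levels of 5.83, 6.08 and 5.20 in CS and 7.36, 6.42 and 5.82 in NT (-1.01 ± 0.37, adjusted p = 0.238), and was not well above background in CS at 24 h and 48 h. Htr2b, a related receptor, had 4.89, 4.04 and 2.44 in CS and 2.99, 5.04 and 4.93 in NT, so that the groups overlapped, and it was not well above background in any NT channel. Maoa, which breaks serotonin down, had 12.98, 12.98 and 12.03 in CS and 12.70, 12.99 and 11.99 in NT (0.06 ± 0.17, adjusted p = 0.878).

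The difference between CS and NT was then compared between cells alone and co-cultured cells at 6 h and 48 h, within arrays. None of 12878 genes was called by limma (0%; 895 had an unadjusted p under 0.05), and the smallest adjusted p was 0.108. Nos2 had the difference -1.39 in cells alone, while in the co-cultured cells CS lay 0.19, 0.15 and 0.03 below NT at 6, 24 and 48 h, and the gap between both cultures was -1.35 ± 0.30 (95% interval -2.08 to -0.62; adjusted p = 0.626). For Fkbp5 the gap was 0.29 ± 0.15 (-0.08 to 0.66), for Zbtb16 0.49 ± 0.20 (0.00 to 0.98) and for Celsr1 -1.38 ± 0.21 (-1.89 to -0.87; adjusted p = 0.623). Both channels of an array were scaled to each other by the scanner software, so the channels are not independent measurements.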

How the data were processed

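RNA of 3T3-L1 cells was labelled and hybridized to 12 dual-colour Agilent mouse arrays by the authors, cells alone in Cy3 and co-cultured cells in Cy5. The deposited files hold spot intensity values of both channels, local backgrounds, a processed intensity that Feature Extraction (10.7.3.1 per the file headers, 10.5.1.1 in the submitters' processing notes) had corrected for background and dye, a log10 ratio, and other flag columns deposited for each spot. The authors' own value matrix was not used. The log2 of the processed green intensity was quantile-normalized over the 12 green channels in limma 3.58.1 (R 4.3.3, with statmod 1.5.0). Control and outlier spots were left out and spots of a probe averaged.

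Of 39429 probes, 27508 were named through RefSeq (GRCm38.p6), giving 20886 symbols. Probes had to be well above background in green on at least 3 of 12 arrays, and of several probes the brightest was kept, which left 12938 genes. Of the 78 genes called at 6 h and 48 h, 23 had another probe, and for 3 (Scara5, Svil and Vasn) it went the opposite way. For others, such as Syn2, Loxl2 and Denr (0.18 against 2.01, log2), it went the same way by less. A gene could lack up to 3 of 12 values. A bound was set, where a group was not well above background, as the mean of the brighter group against the higher of the dim probe's signal and the lowest signal well above background on each array.

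The green channels of NT, C and CS were fitted with treatment and time (lmFit, eBayes with a mean trend; 4 residual degrees of freedom, or 3 without CS at 24 h). S channels stayed out because the label of 2 of them was in doubt. The fit of alone against co-cultured used the difference of both channels within an array. The study states no test for single channels; its fold threshold of 1.5 was kept. Adjusted p-values are Benjamini-Hochberg over all genes tested. The fits were also run on simulated data with known changes. These values were drawn independently for each array, without effects of time or slide position, and do not bear on such effects. Alternatives were other arrays in the fit, no time term, other scalings and background corrections, other filters on dim probes, averaging a gene's probes, array weights, no mean trend, other fold thresholds, the deposited log ratios and leaving out each array. Leaving out spot columns 1 and 85 and adding S at 48 h were chosen after seeing the data.

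The members, the 21 lists and the naming rule were chosen with earlier results of these data known. The rule named, among genes called at 6 h and 48 h with 1 sign at both times, the 12 highest and 12 lowest (without olfactory receptors, clones and predicted genes), the called list members, and 9 glucocorticoid-induced genes whatever their values; other genes were named after their values were seen. A gene that the rule names is not reported here. The number of arrays limits the precision. Figures were drawn with matplotlib.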

Additional observations from a re-analysis of the deposited data

Results flagged for a closer look

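Outside the comparisons above, Zbtb16 was raised in 2 green channels labelled serotonin alone. Its level was 10.01 in the S channel at 6 h and 10.02 in the S channel at 24 h, against 7.36 to 7.95 in the 3 NT channels, which is why both were singled out. At 48 h the S channel had 7.70 for Zbtb16, within the range of NT. Other glucocorticoid-induced genes lay above every NT level in S at both 6 h and 24 h. They were Tsc22d3 (14.49 and 14.53, NT 13.29 to 13.99), Per1 (14.17 and 14.17, NT 12.63 to 13.33) and Pdk4 (11.05 and 11.34, NT 10.03 to 10.47). Fkbp5 and Klf9 did so at 24 h, and Dusp1, Sgk1 and Rgs2 at neither time. Whether these cultures received cortisol was not tested.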

How the results depend on the processing

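The counts of called genes depended on the processing, while no named gene called in either comparison with NT reversed its direction under any alternative. The 34 genes that differed between CS and NT over 3 times became 202 with all 4 treatments fitted, 59 with 75th percentile scaling, 69 with probes well above background on all arrays, 21 without spot columns 1 and 85, 20 at 2-fold, 10 with a gene's probes averaged, and 0 with the CS and NT arrays only, without the time term, without the mean trend or with no filter on dim probes. Leaving out single arrays gave 0 to 166. The 78 genes at 6 h and 48 h became 306 with all 4 treatments, 200 with array weights, 40 with averaged probes, 36 with normexp background correction, 10 with the CS and NT arrays only, 5 without the mean trend, 5 with no filter and 3 without the time term, and leaving out single arrays gave 9 to 154. Between CS and C, 2 genes were called with array weights and 0 to 32 when single arrays were left out. For cells alone against co-cultured cells, 2 were called with all 4 treatments and 0 with any single array left out. The genes at least 1.5-fold apart at 6, 24 and 48 h (3599, 2043 and 2099) became 2060, 936 and 1053 with normexp, 2148, 1099 and 1198 with probes well above background on all arrays, and 6721, 4392 and 4548 with no filter. The cause of these changes was not tested. Of 34 named genes called at 6 h and 48 h, 1 (Zbtb16) kept its call under all alternatives. The time term pairs CS with NT by time and slide, and the counts without it (0 and 3) are those of the unpaired fits. With 1 array per treatment and time, and no dye swap, the number of arrays limits the precision.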

Other observations

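Further gene groups had 0 members called between CS and NT at 6 h and 48 h, where 0.604% of all genes were called. Cell cycle genes had a median difference of -0.09 over 37 measured, NRF2, glutathione and redox genes -0.10 over 27, hypoxia and glycolysis genes -0.16 over 32, and genes of ER stress and the amino acid response 0.02 over 30. Immediate early genes, the transcription factors that cells switch on within minutes of a stimulus, had a median of -0.17 over 28, with 0.02 at 6 h and -0.33 at 48 h. Clock genes had a median of -0.10 over 15 measured, and of these 3 (20%) lay at least 1.5-fold higher and 2 (13.3%) at least 1.5-fold lower in CS at both times, against 3.91% and 1.76% of all genes. Fibroblast markers had a median of -0.08 over 21 and adipocyte markers 0.16 over 7.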
